A study of Homo sapiens with 9 samples.

Results

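The genes described here are 40 genes of the G2 and M phases of the cell cycle, taken by name from a list. The rule uses no measured value, but the list was chosen with earlier results of these data known. All 40 were found by gene name among the 58735 genes of the deposited expression table. PRC1 was listed near 0 in every library, so 39 of the 40 passed the filter of a mean of at least 0.5 FPKM over all libraries and were tested. FPKM is the number of sequenced fragments or reads of a gene scaled to its exon length and to the size of the library. In the knockout clone KO2, 26 of the 39 fell against control cells and 0 rose, where 15% of all genes tested were called lower and 12.9% higher. In the clone KO1, 10 rose and 1 fell, beside 17.4% and 16.7% of all genes. Between the clones 25 were lower in KO2 than in KO1 and 0 higher, beside 16.4% and 14.5%. RNA amounts of genes that cycle depend on the share of cells in each phase. In bulk samples such as these, fewer cells in G2 or mitosis and less RNA per such cell cannot be told apart.

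RNA was sequenced from H1299, an established human lung cancer cell line that the labels call lung adenocarcinoma. Vector, labelled wild type, is H1299 transduced with the lentiCRISPR v2 plasmid by lentivirus. KO1 and KO2 are BCKDK knockout lines made by CRISPR editing and isolated by limiting dilution, so each is 1 clone. Each group has 3 libraries, and no drug treatment or time point is labelled. BCKDK is the kinase that inhibits the branched-chain ketoacid dehydrogenase complex. Vector is not described as a single-cell clone, so BCKDK editing and cloning cannot be told apart against Vector. Nothing in the labels tells whether replicate libraries were grown as separate cultures. Each p-value is thus set against a spread among libraries that may be technical.

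A cell enters mitosis when CDK1, bound to cyclin A or cyclin B, is switched on by CDC25 phosphatases, with PLK1 and Aurora kinases reinforcing the switch. The duplicated chromosomes then attach through kinetochores to the spindle, and the spindle assembly checkpoint holds anaphase until every chromosome is attached. Release of the checkpoint lets CDC20 activate the anaphase-promoting complex, which marks cyclin B and securin for destruction, and the midzone proteins then split the cell. Transcripts of these genes are low in G1 and peak in G2 and mitosis. Many of their promoters carry a cell cycle genes homology region (CHR), bound by the MuvB core of the DREAM and MMB complexes, together with CCAAT boxes, bound by NF-Y.

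The promoters of 8 members are printed because they span the extremes in KO2. The 4 from KIF4A, BUB1, KIF2C and CKS2 belong to the members with the smallest p among those that fell in KO2. The 4 from CDC25B, CENPF, MKI67 and DLGAP5 belong to members with the largest p there. Each is given 5′ to 3′ on the gene's strand from 150 bases before the RefSeq start to the 30 bases from the start on, in build GRCh38.p14. Capitals mark the CHR letters TTTGAA or TTCGAA and the CCAAT box, CCAAT, on either strand (TTCAAA and ATTGG on the opposite strand).
KIF4A (chrX:70289954-70290133, plus strand): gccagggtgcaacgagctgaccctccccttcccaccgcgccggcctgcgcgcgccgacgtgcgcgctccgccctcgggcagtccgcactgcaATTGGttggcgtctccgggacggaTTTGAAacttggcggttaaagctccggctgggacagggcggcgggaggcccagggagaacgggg
BUB1 (chr2:110678034-110678213, minus strand): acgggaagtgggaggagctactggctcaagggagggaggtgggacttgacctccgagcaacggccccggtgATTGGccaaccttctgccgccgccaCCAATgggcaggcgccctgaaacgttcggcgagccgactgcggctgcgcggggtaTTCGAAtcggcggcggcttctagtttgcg
KIF2C (chr1:44739687-44739866, plus strand): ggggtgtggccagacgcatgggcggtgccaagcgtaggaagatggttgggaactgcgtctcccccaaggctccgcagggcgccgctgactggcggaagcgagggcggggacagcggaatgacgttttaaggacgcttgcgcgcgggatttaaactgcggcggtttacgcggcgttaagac
CKS2 (chr9:89311045-89311224, plus strand): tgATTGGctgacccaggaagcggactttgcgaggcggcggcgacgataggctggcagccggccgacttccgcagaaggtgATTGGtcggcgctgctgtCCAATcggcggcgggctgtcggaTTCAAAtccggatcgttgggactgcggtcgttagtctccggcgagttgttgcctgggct
CDC25B (chr20:3786801-3786980, plus strand): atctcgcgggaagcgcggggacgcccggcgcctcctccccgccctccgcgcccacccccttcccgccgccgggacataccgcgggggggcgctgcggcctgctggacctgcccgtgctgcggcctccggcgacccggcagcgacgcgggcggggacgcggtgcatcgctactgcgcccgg
CENPF (chr1:214603045-214603224, plus strand): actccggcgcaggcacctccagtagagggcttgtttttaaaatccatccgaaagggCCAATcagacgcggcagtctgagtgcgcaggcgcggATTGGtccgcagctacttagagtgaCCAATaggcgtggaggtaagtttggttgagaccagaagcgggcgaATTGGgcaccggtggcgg
MKI67 (chr10:128126394-128126573, minus strand): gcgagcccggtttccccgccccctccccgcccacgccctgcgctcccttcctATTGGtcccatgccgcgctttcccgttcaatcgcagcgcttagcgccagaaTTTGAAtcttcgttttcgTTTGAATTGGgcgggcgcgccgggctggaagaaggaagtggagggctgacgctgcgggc
DLGAP5 (chr14:55191556-55191735, minus strand): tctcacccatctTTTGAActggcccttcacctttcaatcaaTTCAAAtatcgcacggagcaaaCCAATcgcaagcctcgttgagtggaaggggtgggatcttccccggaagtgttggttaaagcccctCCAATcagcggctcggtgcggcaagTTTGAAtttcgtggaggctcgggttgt
KIF4A, BUB1 and CKS2 hold both kinds of letters in this stretch, and KIF2C holds neither. CDC25B also holds neither, CENPF holds CCAAT boxes only, and MKI67 and DLGAP5 hold both. The second CHR of MKI67 runs into its CCAAT box, so the matches share bases. A match describes letters and is not a measured site.

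RefSeq promoters of 34 of the 40 members were in the promoter table, which covers 250 bases before to 50 bases after each start. UBE2C, BIRC5, TPX2, AURKA, TTK and BUB3 had no entry. CHR letters were found in 24 of the 34 (70.6%), against 16.4% of all 35116 promoters of the table. CCAAT boxes were found in 26 of the 34 (76.5%), against 34.6% of all promoters. Both occurred together in 58.8% of the member promoters and 6.4% of all. The E2F letters TTCCCGC or TTTGGCGC were in 11.8% of member promoters and 7.1% of all, and the forkhead letters TAAACA in 8.8% and 12.3%. By response, CHR letters were in 18 of 22 promoters of members that fell in KO2 and in 5 of 11 of the other fitted members. They were in 2 of 7 promoters of members that rose in KO1 and in 21 of 26 of the others. These shares are descriptions with no test.

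Depth was nearly equal, with 16002212 to 17090445 recovered reads per library. The library size used in the FPKM departed from these reads unequally. Its ratio to them was 0.948 to 0.989 in KO1 and 1.005 to 1.058 in Vector. In KO2 it was 1.064, 1.076 and 0.995 for replicates 1, 2 and 3. The edited gene, BCKDK, was lower in every knockout library, at 0.628, 0.576 and 0.287 FPKM in KO2 and 1.91, 2.06 and 1.67 in KO1, against 13.7, 12.9 and 17.5 in Vector. In both Vector and KO2, replicate 3 was unlike the rest of its group. The chi-square per degree of freedom was 44.3 to 52.6 for pairs with one of them, and 2.44 to 6.84 for the other pairs within a group. Vector replicate 3 was the lowest Vector library for 30 of the 39 members, against 43.6% of all genes. Its median difference from the other Vector libraries was -0.31 on the log2 scale over the members and -0.013 over all genes. KO2 replicate 3 was the highest KO2 library for 21 members and the lowest for 13. Counts are therefore given with all 9 libraries and without these 2. The 2 were chosen from their values in these data. Without them Vector and KO2 keep replicates 1 and 2, so 2 libraries each. The spread then leaves out the libraries furthest from their groups, and its p-values are to be read with that limit. Of all genes, 25.4% were then called lower in KO2, beside 15% with all libraries. Of 9 lung epithelial markers, 7 averaged under 0.5 FPKM and were not fitted: EPCAM, CDH1, NKX2-1, SFTPB and SFTPC were at 0 to 0.169 FPKM in every library, NAPSA reached 0.514 and KRT7 reached 1.24 in KO1. The other 2, the keratins KRT8 and KRT18, rose in KO1 (log2 2.83 and 2.38), and their part in the KO1 results was not tested. The summed level of the 9 was 67.2 to 92.2 FPKM in Vector, 426 to 490.1 in KO1 and 102 to 121 in KO2. KRT18 also rose in KO2 (log2 0.54). Of 3 mesenchymal markers, VIM was at 454 to 817 FPKM and not called, FN1 rose in both clones (log2 2.14 in KO1 and 3.09 in KO2) and CDH2 rose in KO1 (log2 0.58). Markers of leukocytes, fibroblasts and endothelium stayed at 0 to 0.506 FPKM.

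Most members fell in KO2. By limma on log2(FPKM + 1), with Benjamini-Hochberg adjustment over all 16426 genes fitted and a threshold of 0.05, 26 of the 39 members fell in KO2 against Vector and 0 rose. At an unadjusted p under 0.05 the members counted 26 lower and 0 higher, and limma-voom on recovered reads gave the same counts. Over all genes these shares were 21% lower and 19% higher at that unadjusted p, and 16% and 14.3% by limma-voom. The limma-voom fits used reads recovered from the FPKM and the library sizes held in the FPKM. They therefore cannot check that scaling. The median log2 fold change of the members was -0.53, against -0.0049 over all genes. In 26 members all KO2 libraries lay below all Vector libraries, and in 0 above, beside 20.7% and 18.3% of all genes. Without the 2 libraries that stand apart, 34 fell and 0 rose, where 25.4% and 24.1% of all genes were called.

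KO1 did not follow this pattern. There 10 members rose (CDC25B, UBE2C, AURKB, PLK1, KIF2C, BIRC5, CKS1B, AURKA, CCNA2 and CDC25C) and CKS2 fell. At an unadjusted p under 0.05, 14 members were higher and 6 lower in KO1, beside 23% and 21.8% of all genes, and limma-voom called 11 and 2, beside 18.9% and 17.5%. The median over the members was 0.17, against 0.0083 over all genes. All KO1 libraries lay above all Vector libraries for 17 members and below them for 5, beside 26% and 24.1% of all genes. Without the 2 libraries that stand apart, 15 members rose and 12 fell in KO1, where 29.5% and 27.3% of all genes were called. Those that rose were the 10 named above with CDC20, CENPF, NUF2, KIF4A and ANLN. Those that fell were CKS2, CCNB2, BUB1, BUB1B, TTK, KIF11, HMMR, DLGAP5, KIF20A, KIF23, ECT2 and TOP2A. Leaving out Vector replicate 3 alone also gave 12 falling, beside 21.6% of all genes. With all libraries kept, TPM scaling gave 8 falling in KO1, quantile normalization 7 and library weights 13, beside 20%, 16.1% and 31.6% of all genes. These counts of falls, like the 12 without the 2 libraries, were near the shares of all genes.

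The clones were also compared directly, in the same model of all 9 libraries, where the Vector libraries enter only the estimate of the spread. KO2 was lower than KO1 in 25 members and higher in 0. At an unadjusted p under 0.05 the counts were 30 lower and 1 higher, beside 22.4% and 19.6% of all genes, and limma-voom gave 27 and 0, beside 17.8% and 15.7%. A fit of the 6 knockout libraries alone gave 32 lower and 1 higher, beside 20.9% and 17.6%. The median difference was -0.54, against -0.017 over all genes. All KO2 libraries lay below all KO1 libraries in 33 members and above them in 1, beside 28.8% and 24.8% of all genes. Without the 2 libraries, 34 were lower and 2 higher, where 26.1% and 21.6% of all genes were called. Put together, 7 members rose in KO1, fell in KO2 and differed between the clones, 13 fell in KO2, did not pass in KO1 and differed, and 3 rose in KO1, did not pass in KO2 and differed. A further 5 passed only as lower in KO2, and 2 only between the clones. CKS2 fell in both clones, and 8 passed in none of the comparisons. The shares of all genes with these joint patterns were not computed, and the comparisons share libraries. How unusual the pattern counts are is thus not known.

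**Figure D1:**
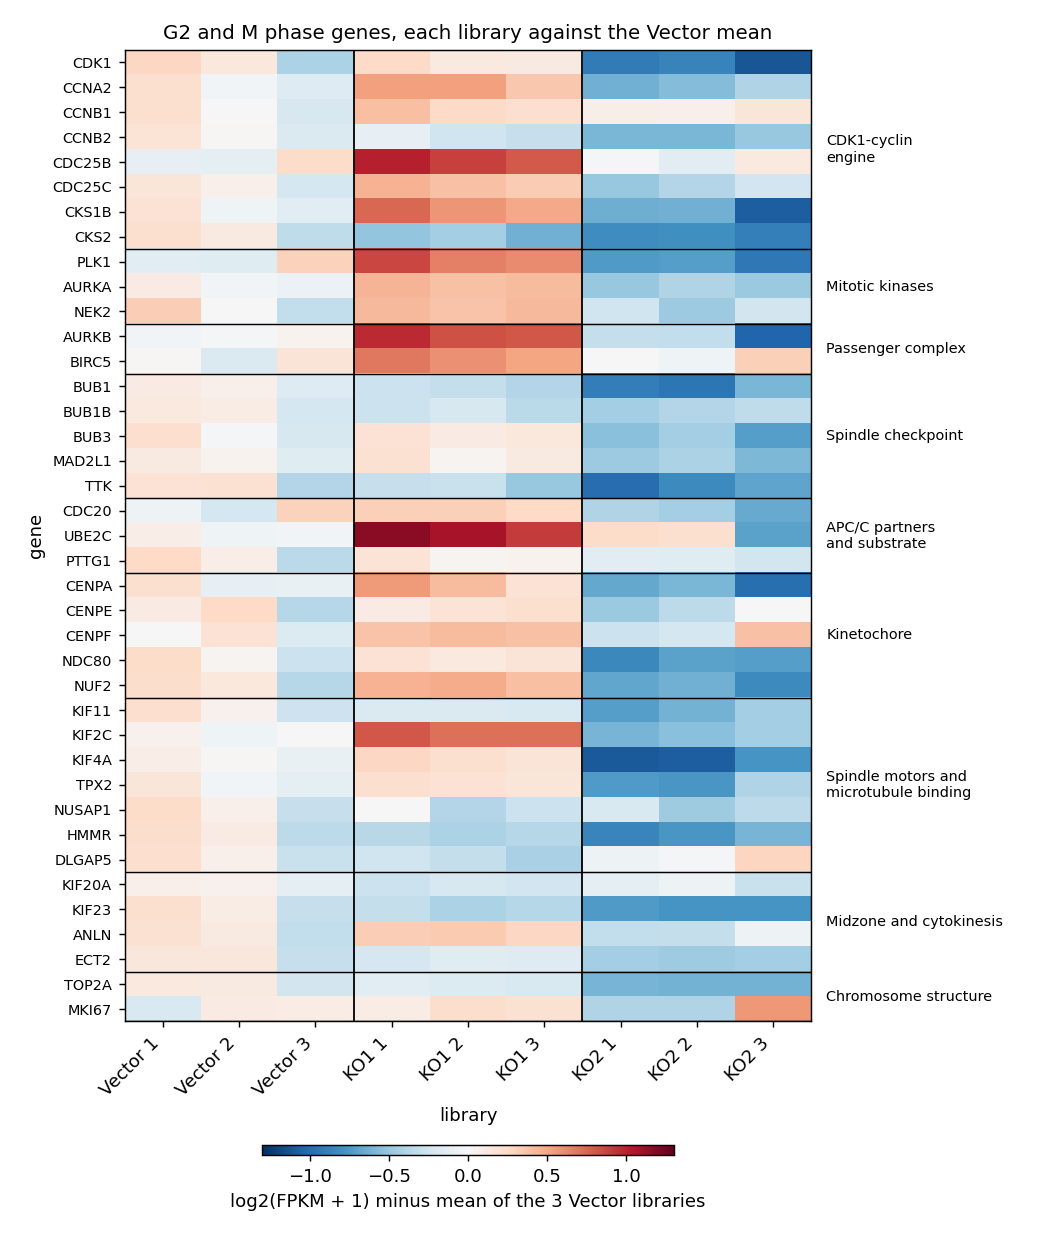
Level of the 39 fitted members (rows, grouped by role) in each of the 9 libraries (columns), as log2(FPKM + 1) minus the mean of the 3 Vector libraries (colour scale). The KO2 columns are mostly blue, the KO1 columns hold red rows such as CDC25B, PLK1, AURKB and UBE2C, and Vector replicate 3 is bluer than the other Vector columns in most rows.

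**Figure D2:**
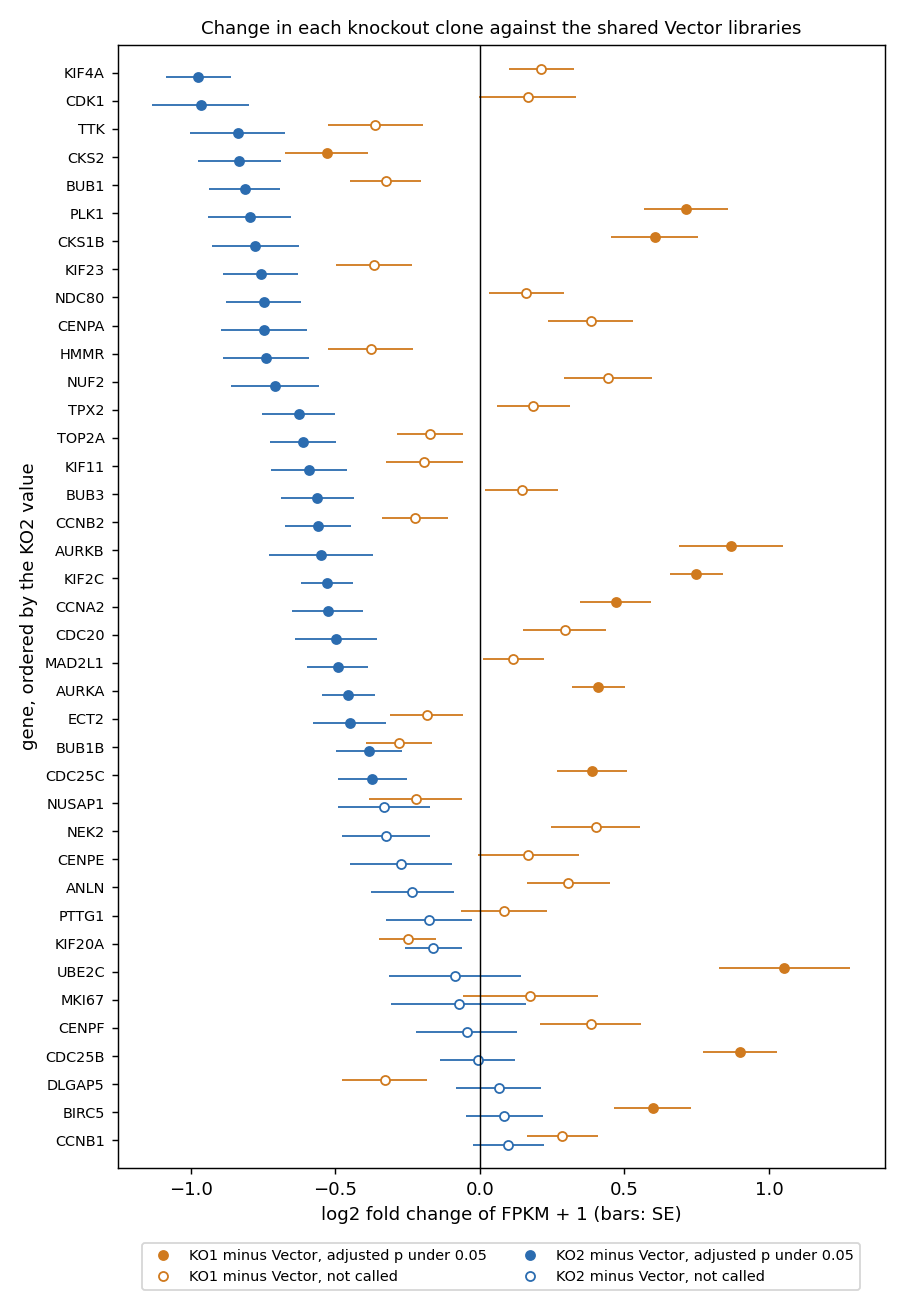
Log2 fold change of FPKM + 1 (x axis, bars are SE) of each fitted member (y axis, ordered by the KO2 value) in KO1 (orange) and KO2 (blue) against the shared Vector libraries. Filled points passed an adjusted p of 0.05: 26 blue points lie left of 0, 10 orange points lie right of it and 1 orange point, CKS2, lies left.

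Of the 8 genes of the CDK1-cyclin engine, 6 fell in KO2, and 4 rose and 1 fell in KO1. Over all genes 15% were called lower in KO2, and 17.4% higher and 16.7% lower in KO1. The 3 values of a group are given below for replicates 1, 2 and 3 in turn. CDK1, the kinase that drives mitotic entry, measured 28.3, 25.8 and 17.3 FPKM in Vector, 28, 25.5 and 25.4 in KO1 and 11.9, 12.3 and 10.2 in KO2. The KO2 libraries were all below the others, while KO1 overlapped Vector. CDK1 fell in KO2 (log2 -0.96, SE 0.17, adjusted p = 0.0029), and KO2 was lower than KO1 (log2 -1.13, SE 0.17, adjusted p = 0.00109). Its KO1 value was 0.17 (adjusted p = 0.481), and -0.038 without the 2 libraries. CCNA2, cyclin A2, which acts in S phase and at mitotic entry, measured 35.6, 30 and 27.3 FPKM in Vector, 44.9, 44.9 and 39.5 in KO1 and 19.6, 20.6 and 23.2 in KO2. The groups did not overlap, with KO1 highest and KO2 lowest. CCNA2 rose in KO1 (log2 0.47, SE 0.12, adjusted p = 0.0168) and fell in KO2 (log2 -0.53, SE 0.12, adjusted p = 0.0121). The CCNA2 call in KO1 was lost without Vector replicate 2 or KO1 replicate 1 or 2 (adjusted p = 0.0547 to 0.0696).

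CCNB1, cyclin B1, the partner of CDK1 in mitosis, stood apart from CDK1 in that no test passed in the model of all 9 libraries. It measured 77.8, 67.1 and 57.8 FPKM in Vector, 88.4, 79.8 and 78.1 in KO1 and 70.9, 70.3 and 74.7 in KO2, and KO2 overlapped Vector (log2 0.10, adjusted p = 0.588). Every KO1 library lay above every Vector library (log2 0.29, adjusted p = 0.102). CCNB2, cyclin B2, ranged from 30.1 to 39.1 FPKM in Vector, from 27.9 to 31.9 in KO1 and from 22.5 to 24.3 in KO2. It fell in KO2 (log2 -0.56, SE 0.11, adjusted p = 0.00671) and, without the 2 libraries (log2 -0.32, adjusted p = 0.0099) or without Vector replicate 3 alone, also in KO1, where its value was otherwise -0.22 (adjusted p = 0.164). 

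The CDC25 phosphatases remove the inhibitory phosphates from CDK1. CDC25B measured 27.8, 27.4 and 35.4 FPKM in Vector, 61.6, 56.3 and 53 in KO1 and 29.6, 27.2 and 32.8 in KO2, so KO1 alone stood above the other groups. It rose in KO1 (log2 0.90, SE 0.13, adjusted p = 0.00077), and KO2 was at the Vector level (log2 -0.0074, adjusted p = 0.974). CDC25C measured 8.21, 7.61 and 6.05 FPKM in Vector, 10.3, 9.73 and 9.38 in KO1 and 4.87, 5.35 and 5.94 in KO2, with KO1 above and KO2 below every Vector library. CDC25C rose in KO1 (log2 0.39, SE 0.12, adjusted p = 0.0333) and fell in KO2 (log2 -0.37, SE 0.12, adjusted p = 0.0462), both near the threshold. The CDC25C call in KO1 was lost without Vector replicate 2, KO1 replicate 1, 2 or 3 or KO2 replicate 2 (adjusted p = 0.0532 to 0.112). The CDC25C call in KO2 was lost without Vector replicate 1 or 2, KO1 replicate 1, 2 or 3 or KO2 replicate 1 or 2 (adjusted p = 0.0725 to 0.146). Between the clones the CDC25C difference was -0.76 (adjusted p = 0.00156).

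CKS1B and CKS2 encode the small CDK-binding paralogs that help CDK1 and its relatives reach their substrates, and they parted in KO1. CKS1B measured 33.3, 27.8 and 26.4 FPKM in Vector, 49.4, 43.7 and 41.2 in KO1 and 18.4, 18.5 and 13.3 in KO2. KO1 lay above and KO2 below every Vector library. CKS1B rose in KO1 (log2 0.60, SE 0.15, adjusted p = 0.0133) and fell in KO2 (log2 -0.78, SE 0.15, adjusted p = 0.00496). The CKS1B call in KO1 was lost without KO1 replicate 1 (adjusted p = 0.0575). CKS2 measured 125, 117 and 86 FPKM in Vector, 75.3, 79 and 69.5 in KO1 and 61.3, 61.6 and 57.9 in KO2. Both clones lay below Vector. CKS2 fell in KO1 (log2 -0.53, SE 0.14, adjusted p = 0.0192) and in KO2 (log2 -0.83, SE 0.14, adjusted p = 0.00279), and the difference between the clones did not pass (log2 -0.30, adjusted p = 0.142). The CKS2 call in KO1 was lost without Vector replicate 1 or 2 or KO1 replicate 1 or 3 (adjusted p = 0.0579 to 0.0755). GENCODE 29 names 6 pseudogenes of CKS1B, and reads shared with near-identical copies make its level uncertain.

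**Figure D3:**
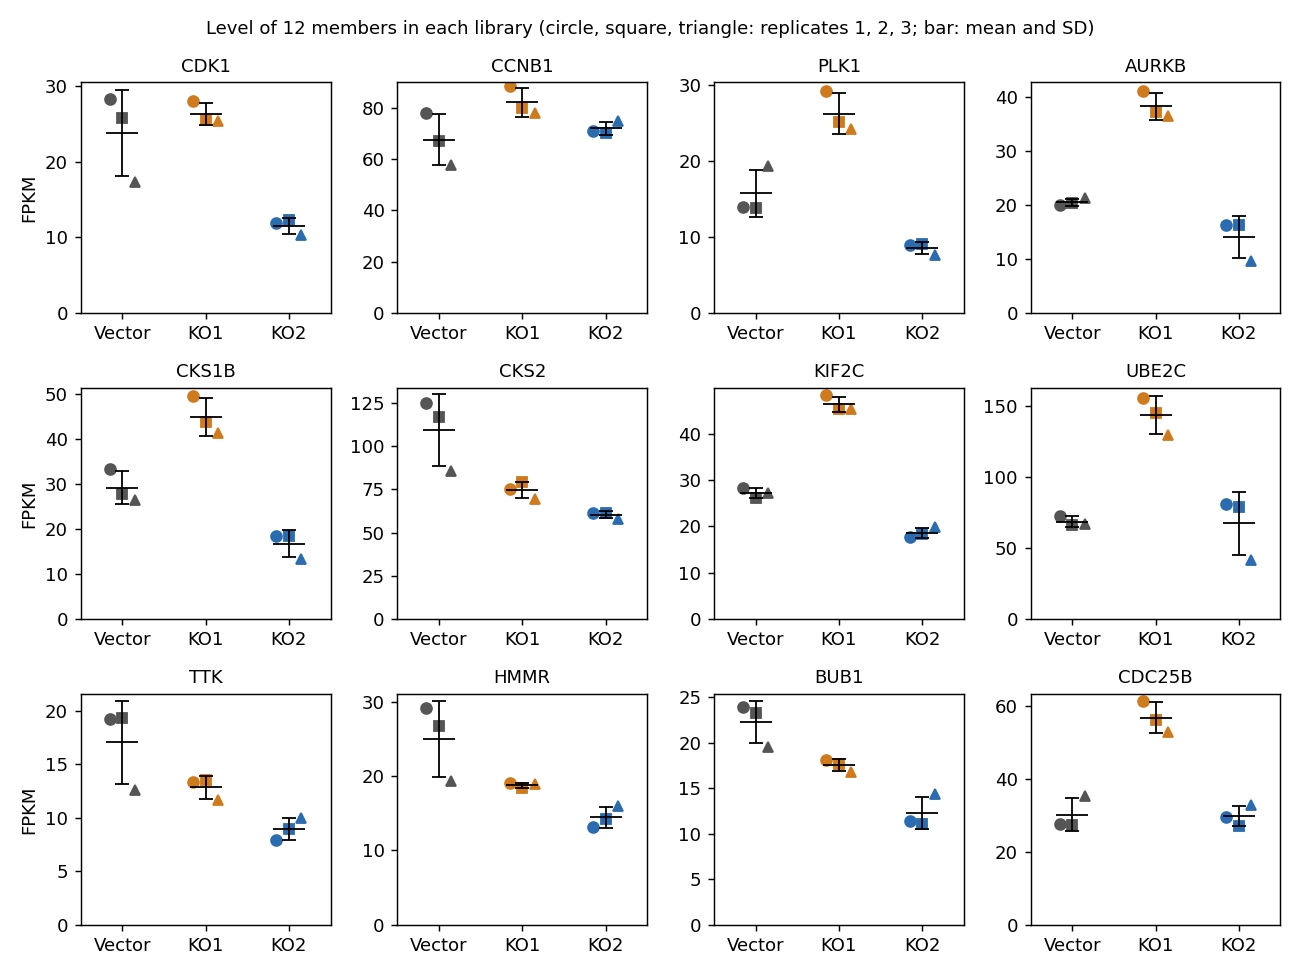
FPKM (y axis, from 0) of 12 members in the 3 libraries of each group (x axis). Symbols are replicates 1, 2 and 3, and the bar shows the mean and SD. PLK1, AURKB, CKS1B and KIF2C are highest in KO1 and lowest in KO2, CKS2, TTK, HMMR and BUB1 step down from Vector to KO2, and CCNB1 shows little change.

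Among the mitotic kinases, PLK1 and AURKA rose in KO1 and fell in KO2. PLK1, which promotes mitotic entry, centrosome maturation and cytokinesis, measured 14, 13.8 and 19.4 FPKM in Vector, 29.3, 25.1 and 24.2 in KO1 and 8.91, 9.09 and 7.66 in KO2. All KO1 libraries were above and all KO2 libraries below Vector, in which replicate 3 was the highest. PLK1 rose in KO1 (log2 0.71, SE 0.14, adjusted p = 0.00502) and fell in KO2 (log2 -0.80, SE 0.14, adjusted p = 0.00361), and its difference between the clones was -1.51 (adjusted p = 9.55e-05). AURKA, the Aurora kinase of centrosomes and spindle poles, measured 37.2, 33.7 and 32.7 FPKM in Vector, 47.2, 45.1 and 46.2 in KO1 and 24.3, 26.1 and 24.4 in KO2. It rose in KO1 (log2 0.41, SE 0.091, adjusted p = 0.00823) and fell in KO2 (log2 -0.45, SE 0.091, adjusted p = 0.00605). NEK2, a centrosome kinase, measured 12.9, 10.1 and 7.91 FPKM in Vector, 13.8, 13.3 and 13.9 in KO1 and 8.3, 7 and 8.42 in KO2, with the Vector libraries spread widely. It passed only between the clones (log2 -0.73, SE 0.15, adjusted p = 0.00696), with 0.40 in KO1 (adjusted p = 0.0718) and -0.32 in KO2 (adjusted p = 0.148).

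Of the chromosomal passenger complex, which corrects faulty chromosome attachments, the kinase AURKB and the subunit BIRC5 (survivin) were members. AURKB measured 19.9, 20.3 and 21.2 FPKM in Vector, 41.1, 37.2 and 36.5 in KO1 and 16.3, 16.3 and 9.54 in KO2. The KO1 libraries were the highest, and KO2 replicate 3 was far below the other KO2 libraries. AURKB rose in KO1 (log2 0.87, SE 0.18, adjusted p = 0.00563) and fell in KO2 (log2 -0.55, SE 0.18, adjusted p = 0.0476). Without the 2 libraries that stand apart, the KO2 value was smaller (log2 -0.29, adjusted p = 0.0102). The AURKB call in KO2 was lost without Vector replicate 1, 2 or 3 or KO1 replicate 1, 2 or 3 (adjusted p = 0.0687 to 0.103). BIRC5 measured 17.1, 14.7 and 19 FPKM in Vector, 27.6, 26.1 and 24.5 in KO1 and 16.8, 16.2 and 21.2 in KO2. It rose in KO1 (log2 0.60, SE 0.13, adjusted p = 0.00785), and in KO2 it overlapped Vector (log2 0.085, adjusted p = 0.669). KO2 was lower than KO1 (log2 -0.51, SE 0.13, adjusted p = 0.0171). The BIRC5 call between the clones was lost without KO1 replicate 1 or 2 or KO2 replicate 1 or 2 (adjusted p = 0.0583 to 0.0698).

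All 5 spindle assembly checkpoint genes fell in KO2. In KO1 none passed by limma, with 2 lower and 0 higher at an unadjusted p under 0.05 and 0 called by limma-voom. Over all genes 15% were called lower in KO2. In KO1 21.8% were lower and 23% higher at that unadjusted p, and 5 genes are too few to read these KO1 counts. BUB1, a checkpoint kinase at kinetochores, measured 23.9, 23.3 and 19.6 FPKM in Vector, 18.1, 17.7 and 16.8 in KO1 and 11.4, 11.1 and 14.3 in KO2. The groups did not overlap and stepped down from Vector through KO1 to KO2. BUB1 fell in KO2 (log2 -0.81, SE 0.12, adjusted p = 0.00136), and KO2 was also lower than KO1 (log2 -0.49, SE 0.12, adjusted p = 0.0151). The BUB1 call between the clones was lost without KO1 replicate 1 or 2 or KO2 replicate 1 or 2 (adjusted p = 0.0553 to 0.0612). TTK, the kinase (MPS1) that starts checkpoint signalling, measured 19.2, 19.3 and 12.6 FPKM in Vector, 13.4, 13.5 and 11.6 in KO1 and 7.95, 8.97 and 10 in KO2, with Vector replicate 3 far below the other Vector libraries. TTK fell in KO2 (log2 -0.84, SE 0.16, adjusted p = 0.00541).

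BUB1B (BUBR1), a subunit of the checkpoint complex that holds back CDC20, measured 16.7, 16.2 and 12.8 FPKM in Vector, 12.3, 13 and 11.6 in KO1 and 10.9, 11.4 and 11.8 in KO2. KO2 lay below Vector but overlapped KO1. It fell in KO2 (log2 -0.38, SE 0.11, adjusted p = 0.0332). The BUB1B call in KO2 was lost without Vector replicate 1 or 2, KO1 replicate 1, 2 or 3 or KO2 replicate 1 or 2 (adjusted p = 0.0555 to 0.107). BUB3, which brings BUB1 and BUBR1 to kinetochores, measured 20.6, 17.4 and 15.1 FPKM in Vector, 20.1, 19 and 19.5 in KO1 and 11.8, 12.7 and 10.3 in KO2. BUB3 fell in KO2 (log2 -0.56, SE 0.13, adjusted p = 0.01) and was lower there than in KO1 (log2 -0.71, SE 0.13, adjusted p = 0.00286). MAD2L1, which binds CDC20 while chromosomes are unattached, measured 6.86, 6.46 and 5.5 FPKM in Vector, 7.3, 6.43 and 6.87 in KO1 and 4.21, 4.46 and 3.83 in KO2. KO1 and Vector overlapped, and KO2 was below both. MAD2L1 fell in KO2 (log2 -0.49, SE 0.10, adjusted p = 0.0081) and was lower than in KO1 (log2 -0.61, SE 0.10, adjusted p = 0.00249). Without the 2 libraries, BUB1 (-0.41), BUB1B (-0.39) and TTK (-0.55) also fell in KO1.

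The partners of the anaphase-promoting complex responded unevenly. CDC20, its activator, measured 59.5, 52.9 and 76.7 FPKM in Vector, 77.4, 77.5 and 74.7 in KO1 and 47.1, 45.7 and 39.1 in KO2. KO2 was below Vector, where replicate 3 was the highest. CDC20 fell in KO2 (log2 -0.50, SE 0.14, adjusted p = 0.0295), with a smaller value without the 2 libraries (log2 -0.27, adjusted p = 0.0138), and its KO1 value was 0.29 (adjusted p = 0.143). It rose in KO1 without the 2 libraries (log2 0.44, adjusted p = 0.00086) or without Vector replicate 3 alone. The CDC20 call in KO2 was lost without Vector replicate 1, KO1 replicate 1, 2 or 3 or KO2 replicate 2 or 3 (adjusted p = 0.0505 to 0.0706). KO2 was lower than KO1 (log2 -0.79, SE 0.14, adjusted p = 0.00312). UBE2C, the ubiquitin-conjugating enzyme of the complex, measured 72.6, 65.8 and 66.5 FPKM in Vector, 156, 145 and 129 in KO1 and 80.8, 78.8 and 41.6 in KO2. The KO1 libraries stood well above the rest, and KO2 replicate 3 was far below the other KO2 libraries. UBE2C rose in KO1 (log2 1.05, SE 0.23, adjusted p = 0.00696). In KO2 its value was -0.085 (adjusted p = 0.811) and turned to 0.20 without the 2 libraries (adjusted p = 0.12). PTTG1, securin, which holds separase inactive, measured 58, 51.6 and 37.8 FPKM in Vector, 54.7, 49.5 and 49.9 in KO1 and 44, 43.4 and 40.8 in KO2. It passed in no comparison in the model of all 9 libraries, and fell in KO2 without the 2 (log2 -0.32, adjusted p = 0.0127).

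Of 5 kinetochore and centromere genes, 3 fell in KO2. None passed in KO1 by limma, with 2 higher and 0 lower at an unadjusted p under 0.05 and 1 higher by limma-voom. Over all genes 15% were called lower in KO2. In KO1 23% were higher and 21.8% lower at that unadjusted p, and 18.9% higher by limma-voom. With 5 genes, these KO1 counts are too few to read. CENPA, the histone H3 variant that marks centromeres, measured 16, 12.6 and 12.7 FPKM in Vector, 20.4, 18.5 and 15.7 in KO1 and 8.25, 8.72 and 6.42 in KO2. CENPA fell in KO2 (log2 -0.75, SE 0.15, adjusted p = 0.00559) and was lower there than in KO1 (log2 -1.13, SE 0.15, adjusted p = 0.000558). NDC80 and NUF2 are subunits of the complex that grips spindle microtubules. NDC80 measured 28.7, 24.7 and 19.7 FPKM in Vector, 27.5, 26.4 and 27.2 in KO1 and 13, 14.5 and 14.3 in KO2, and NUF2 measured 15.1, 14.1 and 9.58 FPKM in Vector, 17.8, 18.1 and 17 in KO1 and 7.59, 7.9 and 6.71 in KO2. For both, every KO2 library was below every other library. NDC80 fell in KO2 (log2 -0.75, SE 0.13, adjusted p = 0.00304), as did NUF2 (log2 -0.71, SE 0.15, adjusted p = 0.00848). KO2 was lower than KO1 for NDC80 (log2 -0.91, adjusted p = 0.000937) and for NUF2 (log2 -1.15, adjusted p = 0.000604). 

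The large kinetochore proteins CENPE, a motor, and CENPF did not pass in the model of all 9 libraries. CENPF measured 17.3, 19.9 and 15.3 FPKM in Vector, 22.7, 23.4 and 22.9 in KO1 and 14.1, 14.7 and 22.9 in KO2, with KO2 replicate 3 above the other KO2 libraries. Its KO2 value was -0.045 (adjusted p = 0.873) with all libraries and -0.35 without the 2 that stand apart (adjusted p = 0.00632). CENPE ranged from 6.41 to 10.5 FPKM in Vector, from 9.34 to 10.1 in KO1 and from 5.87 to 8.59 in KO2. Its KO2 value was -0.27 (adjusted p = 0.284), and -0.59 without the 2 libraries (adjusted p = 0.00112).

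Of 7 genes of spindle motors and microtubule-binding proteins, 5 fell in KO2 and KIF2C rose in KO1, beside 15% lower in KO2 and 17.4% higher in KO1 over all genes. KIF4A, a chromosome-bound kinesin, had the smallest p of all members in KO2. It measured 25.4, 24.1 and 22.2 FPKM in Vector, 28.9, 27.6 and 26.8 in KO1 and 10.7, 10.8 and 13.6 in KO2, with KO2 far below both other groups. KIF4A fell in KO2 (log2 -0.97, SE 0.11, adjusted p = 0.000308), and its KO1 value was 0.21 (adjusted p = 0.177). KIF2C, a kinesin that takes microtubules apart at centromeres, measured 28.3, 26 and 27.3 FPKM in Vector, 48.3, 45.5 and 45.4 in KO1 and 17.6, 18.3 and 19.8 in KO2. The groups were tight and apart, with KO1 above and KO2 below Vector. KIF2C rose in KO1 (log2 0.75, SE 0.091, adjusted p = 0.000296) and fell in KO2 (log2 -0.53, SE 0.091, adjusted p = 0.00276). KIF11, the kinesin that separates the spindle poles, measured 23.1, 20.5 and 16.3 FPKM in Vector, 17.2, 17.3 and 17.1 in KO1 and 11.7, 12.5 and 14.2 in KO2. It fell in KO2 (log2 -0.59, SE 0.13, adjusted p = 0.00996) and was lower there than in KO1 (log2 -0.40, SE 0.13, adjusted p = 0.0459). The KIF11 call between the clones was lost without Vector replicate 2, KO1 replicate 1, 2 or 3 or KO2 replicate 1 or 2 (adjusted p = 0.0626 to 0.138).

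TPX2, which activates AURKA and nucleates spindle microtubules, was among the most abundant members at 104, 91.1 and 86.1 FPKM in Vector, 108, 107 and 104 in KO1 and 55.7, 55 and 71.2 in KO2. TPX2 fell in KO2 (log2 -0.63, SE 0.13, adjusted p = 0.00634) and was lower than in KO1 (log2 -0.81, SE 0.13, adjusted p = 0.00147). HMMR, a spindle pole protein and hyaluronan receptor, measured 29.1, 26.7 and 19.3 FPKM in Vector, 19, 18.4 and 18.9 in KO1 and 13.2, 14.2 and 15.9 in KO2. Both clones were below Vector, KO2 more so. HMMR fell in KO2 (log2 -0.74, SE 0.15, adjusted p = 0.00576), and its KO1 value was -0.38 (adjusted p = 0.0759). It fell in KO1 without the 2 libraries (log2 -0.55, adjusted p = 0.000246), and with the median of neighbouring genes subtracted the value was -0.41 (adjusted p = 0.00749). DLGAP5, which stabilises spindle fibres at kinetochores, went another way and measured 18.1, 16.2 and 12.5 FPKM in Vector, 12.7, 12.3 and 11.3 in KO1 and 14.7, 15.3 and 18.9 in KO2. KO1 overlapped Vector only at Vector replicate 3, and all KO2 libraries lay above KO1 (log2 0.39, adjusted p = 0.0698). Without the 2 libraries DLGAP5 fell in KO1 (log2 -0.47, adjusted p = 0.00127). It was then higher in KO2 than in KO1 (log2 0.29, adjusted p = 0.0132). With all 9 libraries and the median of neighbouring genes subtracted, both DLGAP5 values changed sign and neither passed. They were 0.16 in KO1 (adjusted p = 0.256) and -0.19 between the clones (adjusted p = 0.184). NUSAP1, a microtubule-bundling protein, ranged from 1.92 to 3.72 FPKM and passed in no comparison in the model of all 9 libraries. Without the 2 libraries its KO2 value was -0.48 (adjusted p = 0.038), and 62.2% of its exon length overlaps another gene that is listed at 0 in all libraries.

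Of the 4 fitted midzone and cytokinesis genes, 2 fell in KO2 and none passed in KO1 by limma. In KO1 2 were lower and 0 higher at an unadjusted p under 0.05, and limma-voom called 1 lower. Over all genes 15% were called lower in KO2. In KO1 21.8% were lower and 23% higher at that unadjusted p, and 17.5% lower by limma-voom. With 4 genes, these KO1 counts are too few to read. KIF23, the midzone kinesin of the centralspindlin complex, measured 22.1, 20.2 and 15.1 FPKM in Vector, 15.1, 14 and 14.4 in KO1 and 10.9, 10.7 and 10.7 in KO2. It fell in KO2 (log2 -0.76, SE 0.13, adjusted p = 0.00281), and KO2 was lower than KO1 (log2 -0.39, SE 0.13, adjusted p = 0.0478). The KIF23 call between the clones was lost without Vector replicate 2, KO1 replicate 1, 2 or 3 or KO2 replicate 1, 2 or 3 (adjusted p = 0.0608 to 0.144). ECT2, which turns on RhoA at the division plane, measured 36.5, 36.6 and 26.6 FPKM in Vector, 28.2, 29.3 and 29.1 in KO1 and 23.9, 23.6 and 24 in KO2. The KO2 libraries were all below the rest. ECT2 fell in KO2 (log2 -0.45, SE 0.13, adjusted p = 0.0268). The ECT2 call in KO2 was lost without Vector replicate 1 or 2, KO1 replicate 2 or KO2 replicate 1 or 2 (adjusted p = 0.0503 to 0.093).

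ANLN, anillin, a scaffold of the contractile ring, measured 34, 32 and 23.5 FPKM in Vector, 36.9, 37.5 and 35.6 in KO1 and 23.4, 23.5 and 28.1 in KO2. KO1 was above every Vector library, and KO2 overlapped Vector only at Vector replicate 3. ANLN was lower in KO2 than in KO1 (log2 -0.54, SE 0.14, adjusted p = 0.0196), and its KO2 value against Vector was -0.23 (adjusted p = 0.26). It fell in KO2 without the 2 libraries (log2 -0.47, adjusted p = 0.000455) or without Vector replicate 3 alone. The ANLN call between the clones was lost without KO1 replicate 1, 2 or 3 or KO2 replicate 1 or 2 (adjusted p = 0.0526 to 0.0678). KIF20A, a midzone kinesin, measured 16.1, 16 and 14.1 FPKM in Vector, 12.5, 13.2 and 12.7 in KO1 and 14.1, 14.6 and 12.4 in KO2. It passed in no comparison in the model of all 9 libraries, though every KO1 library lay below every Vector library. Without the 2 libraries KIF20A fell in KO1 (log2 -0.31, adjusted p = 0.00134) and in KO2 (log2 -0.15, adjusted p = 0.0404). It was then higher in KO2 than in KO1 (log2 0.15, adjusted p = 0.0306). PRC1, which bundles midzone microtubules, was listed between 0.133 and 0.34 FPKM in the 9 libraries and was not tested. Of its exon length 57.6% overlaps a readthrough gene on the same strand, AC068831.7, listed at 0.596 to 1.28 FPKM, so reads of these genes cannot be told apart where they overlap.

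Of the chromosome genes, TOP2A, the topoisomerase that untangles sister chromatids, measured 46.3, 46 and 35.8 FPKM in Vector, 38.4, 37.5 and 36.8 in KO1 and 27.5, 27.4 and 27.4 in KO2. The KO2 libraries were almost equal and all below the rest. TOP2A fell in KO2 (log2 -0.61, SE 0.11, adjusted p = 0.00399) and was lower there than in KO1 (log2 -0.44, SE 0.11, adjusted p = 0.0171). The TOP2A call between the clones was lost without KO1 replicate 1, 2 or 3 or KO2 replicate 2 (adjusted p = 0.0521 to 0.0666). MKI67, the proliferation marker Ki-67 that coats mitotic chromosomes, measured 15, 18.9 and 18.7 FPKM in Vector, 18.8, 20.6 and 20.2 in KO1 and 13.1, 13.1 and 26.2 in KO2. KO2 replicate 3 was the highest of all 9 libraries while the other KO2 libraries were the lowest. Its KO2 value was -0.073 (adjusted p = 0.845), and -0.34 without the 2 libraries (adjusted p = 0.0306).

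Transcript GC content moved with some of these values. Over the 39 members, the difference of Vector replicate 3 from the other Vector libraries correlated with the GC of the longest transcript (Pearson 0.88, Spearman 0.79), as it did over 16418 genes (0.72 and 0.76). The KO1 fold change of the members also went with GC (0.59 and 0.52), with 0.18 and 0.21 over all genes. For KO2 the values were 0.21 and 0.21 over the members and 0.17 and 0.18 over all genes. These correlations are across genes that share the same libraries and are not independent replicates. The 10 members that rose in KO1 had a median GC of 50.2%, against 41.6% for the 28 not called. With a trend on GC and length removed from each library, 21 members rose and 6 fell in KO1, beside 22.9% and 22.8% of all genes, and 1 rose (CCNB1) and 26 fell in KO2, beside 19.8% and 20.7%. The part of GC content in these calls was not tested. The difference of KO2 replicate 3 from its group went with log2 exon length over the members (0.6 and 0.5), with 0.02 and 0.17 over all genes.

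**Figure D4:**
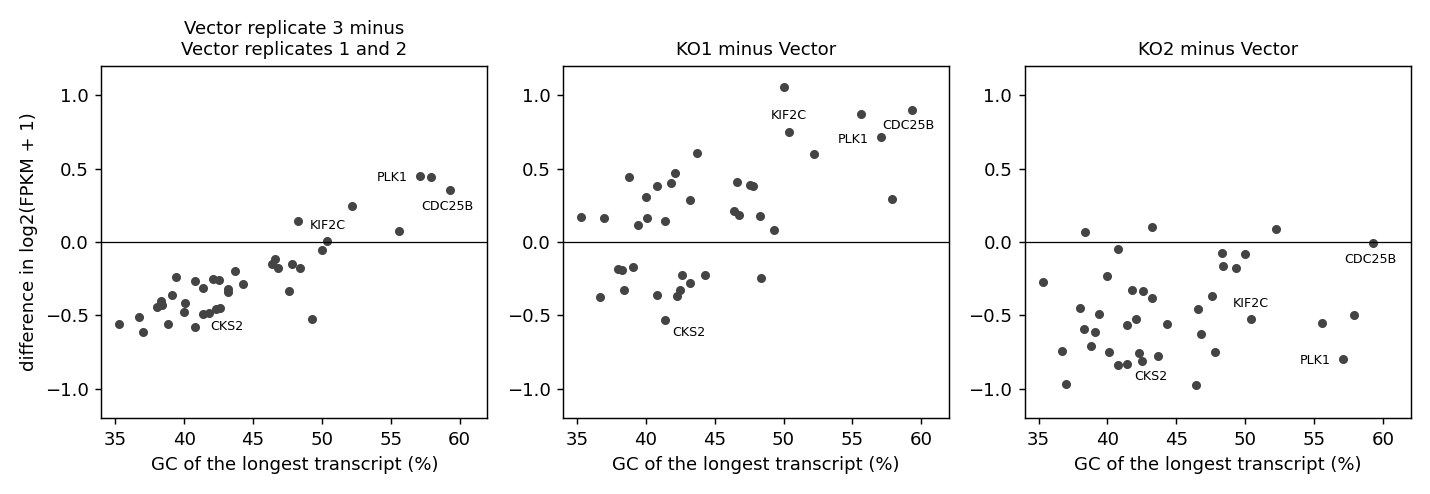
Difference in log2(FPKM + 1) (y axis) against the GC content of the longest transcript in percent (x axis) for the 39 fitted members (points), for Vector replicate 3 against the other Vector libraries (left), KO1 (middle) and KO2 (right) against Vector. The left panel rises steadily with GC (Pearson 0.88), the middle less so (0.59), and in the right panel most points lie below 0 across the GC range (0.21).

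Neighbouring genes moved with some calls in both clones. The median log2 fold change in KO1 of genes within 5 Mb was 0.38 around AURKA, 0.38 around UBE2C, 0.33 around AURKB, 0.30 around BIRC5, 0.25 around CKS1B and 0.22 around CDC25B. Around the other members that rose it was 0.078 for CDC25C, 0.074 for PLK1, 0.052 for KIF2C and 0.043 for CCNA2. AURKA lies on chromosome 20 from 56369389 to 56392337 and UBE2C on the same chromosome from 45812576 to 45816957 (hg38, GENCODE 29). With this median subtracted, the KO1 values were 0.035 (adjusted p = 0.775) for AURKA, 0.67 (adjusted p = 0.0598) for UBE2C, 0.29 (adjusted p = 0.129) for BIRC5, 0.35 (adjusted p = 0.082) for CKS1B and 0.31 (adjusted p = 0.0769) for CDC25C, none of which passed. The calls of CDC25B, AURKB, PLK1, KIF2C and CCNA2 were kept, for example KIF2C at 0.70 (adjusted p = 0.000254) and AURKB at 0.54 (adjusted p = 0.0266). The call of CKS2 was also kept, and NDC80 and ANLN were then called higher and HMMR and KIF20A lower. Over all genes 14.5% were called higher and 14.8% lower in KO1 with this subtraction. The part of the neighbouring genes' changes in these calls was not tested. In KO2 all 26 calls were kept after the subtraction, and PTTG1 was called as well, which gave 27 lower, beside 13.1% of all genes. The KO2 median of neighbours was -0.34 around KIF4A, -0.32 around NDC80 and KIF11 and -0.31 around PLK1, but 0.21 around AURKB. With it subtracted, KIF11 measured -0.28 (adjusted p = 0.0443) and PLK1 -0.48 (adjusted p = 0.0471). Between the clones BIRC5 (adjusted p = 0.228) and TOP2A (adjusted p = 0.061) then lost their calls. CCNB2, TTK, PTTG1, HMMR and ECT2 were then called lower there.

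Of 15 genes of the MMB, DREAM, FOXM1 and NF-Y factors, 4 rose and 2 fell in KO1, beside 17.4% and 16.7% of all genes. In KO2 3 fell and 0 rose, beside 15% and 12.9%. Between the clones 8 were lower and 2 higher in KO2 than in KO1, beside 16.4% and 14.5%. No list was tested as a set. FOXM1, the forkhead factor of G2 and M genes, rose in KO1 (log2 0.63, adjusted p = 0.00993) and measured 0.093 in KO2 (adjusted p = 0.675). MYBL2, the B-MYB of the MMB complex, rose in KO1 (log2 0.57, adjusted p = 0.0129) and was lower in KO2 than in KO1 (log2 -0.93, adjusted p = 0.0012). TFDP1, the partner of E2F proteins, and NFYA, an NF-Y subunit, also rose in KO1 (0.63 and 0.44). LIN9 (log2 -0.54, adjusted p = 0.0139) and LIN52 (log2 -0.52, adjusted p = 0.00987), subunits of the MuvB core, fell in KO2. LIN52 (-0.36) and NFYB (-0.52) fell in KO1.

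Of 15 other genes of mitotic entry control, 6 rose and 4 fell in KO1, beside 17.4% and 16.7% of all genes. In KO2 1 rose and 6 fell, beside 12.9% and 15%. CCNA1, the cyclin A best known from germ cells, rose from 2.92 FPKM in Vector to 4.63 in KO1 and 13 in KO2 (log2 1.83, adjusted p = 4.44e-06 in KO2), opposite to CCNA2 there. VRK1, a chromatin kinase, fell from 16.7 FPKM to 7.5 in KO1 and 6.12 in KO2. MELK, a mitotic kinase, fell in KO2 (log2 -1.03, adjusted p = 0.000681). BORA, the activator of AURKA towards PLK1, rose in KO1 (log2 0.80, adjusted p = 0.000748), and ARPP19, an inhibitor of the phosphatase PP2A in mitosis, fell there (log2 -0.61, adjusted p = 0.00667).

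Of 17 subunits and regulators of the anaphase-promoting complex, 2 rose and 3 fell in KO1, beside 17.4% and 16.7% of all genes. These KO1 counts are near those shares. In KO2 6 fell, beside 15%. UBE2S, the enzyme that extends the ubiquitin chains that UBE2C starts, rose in KO1 from 55.2 to 153 FPKM (log2 1.52, adjusted p = 0.000987). The subunit ANAPC11 also rose in KO1 (0.48), while ANAPC7 (-0.66) and CDC26 (-0.58) fell. In KO2 ANAPC7 (-0.58) and ANAPC13 (-0.80) fell.

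Over all genes 17.4% were called higher and 16.7% lower in KO1, and 15% lower in KO2. Of 31 other kinetochore proteins, 9 rose and 3 fell in KO1, and 11 fell in KO2. HJURP, the chaperone that loads CENPA, rose in KO1 from 24.4 to 53.4 FPKM (log2 1.10, adjusted p = 3.4e-05), as did ZWINT (0.69). KNTC1 (-0.69) and MIS18A, which prepares centromeres for CENPA (-0.50), fell in KO1. In KO2 SKA1, which couples kinetochores to microtubules, fell (log2 -0.88, adjusted p = 0.000554), as did MIS18A (-0.70). Of 24 other spindle, midzone and passenger proteins, 6 rose and 1 fell in KO1 and 11 fell in KO2. CEP55, which recruits the machinery of final cell separation (log2 -0.99, adjusted p = 0.000619), and the kinesin KIF22 (-0.94) fell in KO2. CKAP2L (0.82) and KIF14 (0.63) rose in KO1, and KIF18A fell there (-0.58).

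The 8 condensin genes, which compact chromosomes, gave 2 rises and 1 fall in KO1, beside 17.4% and 16.7% of all genes. They gave 1 rise and 3 falls in KO2, beside 12.9% and 15%. NCAPG (log2 -0.90, adjusted p = 0.00371) and NCAPD3 (-0.60) fell in KO2, and NCAPH2 rose there (0.49). NCAPD2 (0.49) and SMC2 (0.50) rose in KO1, where NCAPD3 fell (-0.38). Of 14 genes of cohesin, shugoshin and separase, 3 rose and 1 fell in KO1 and 3 fell in KO2. ESPL1, separase, rose in KO1 (log2 1.01, adjusted p = 0.00146), as did CDCA5, sororin (0.60), and RAD21, the cohesin subunit that separase cuts, fell (-0.56). PDS5A (-0.63) and SGO1 (-0.52) fell in KO2.

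Genes of the neighbouring phases were compared as well. Of 32 S phase and replication genes, 3 rose and 6 fell in KO1, beside 17.4% and 16.7% of all genes. The falls in KO1 were thus near the share of all genes. In KO2 1 rose and 9 fell, beside 12.9% and 15%. The medians of these genes were -0.048 in KO1 and -0.27 in KO2. CCNE1, cyclin E1, fell in KO1 (log2 -1.67, adjusted p = 8.1e-06) and in KO2 (log2 -1.14, adjusted p = 0.000116). MCM6, a subunit of the replicative helicase, fell in KO1 (-0.89), where E2F1 (0.87) and RRM2 (0.60) rose. ORC6 fell (-0.73) and GINS4 rose (0.45) in KO2. Of 12 fitted genes of G1 control (CDK inhibitors, cyclins D, CDK4, CDK6 and RB1), 9 rose and 0 fell in KO1 (0 lower at an unadjusted p under 0.05 and by limma-voom), and 3 rose in KO2. Those that rose in KO1 were the CDK inhibitors CDKN1A, CDKN1B, CDKN2B, CDKN2C and CDKN2D, the cyclins CCND1 and CCND3, the kinase CDK4, and RB1, the retinoblastoma protein. CDKN1A, the CDK inhibitor p21, rose in KO1 from 16.8 to 51.7 FPKM (log2 1.58, adjusted p = 8.07e-05). CDKN2B, an inhibitor of CDK4 and CDK6, rose in KO1 (0.99) and KO2 (0.84), and CDKN2C rose in KO2 (log2 0.95, adjusted p = 0.00203).

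**Figure D5:**
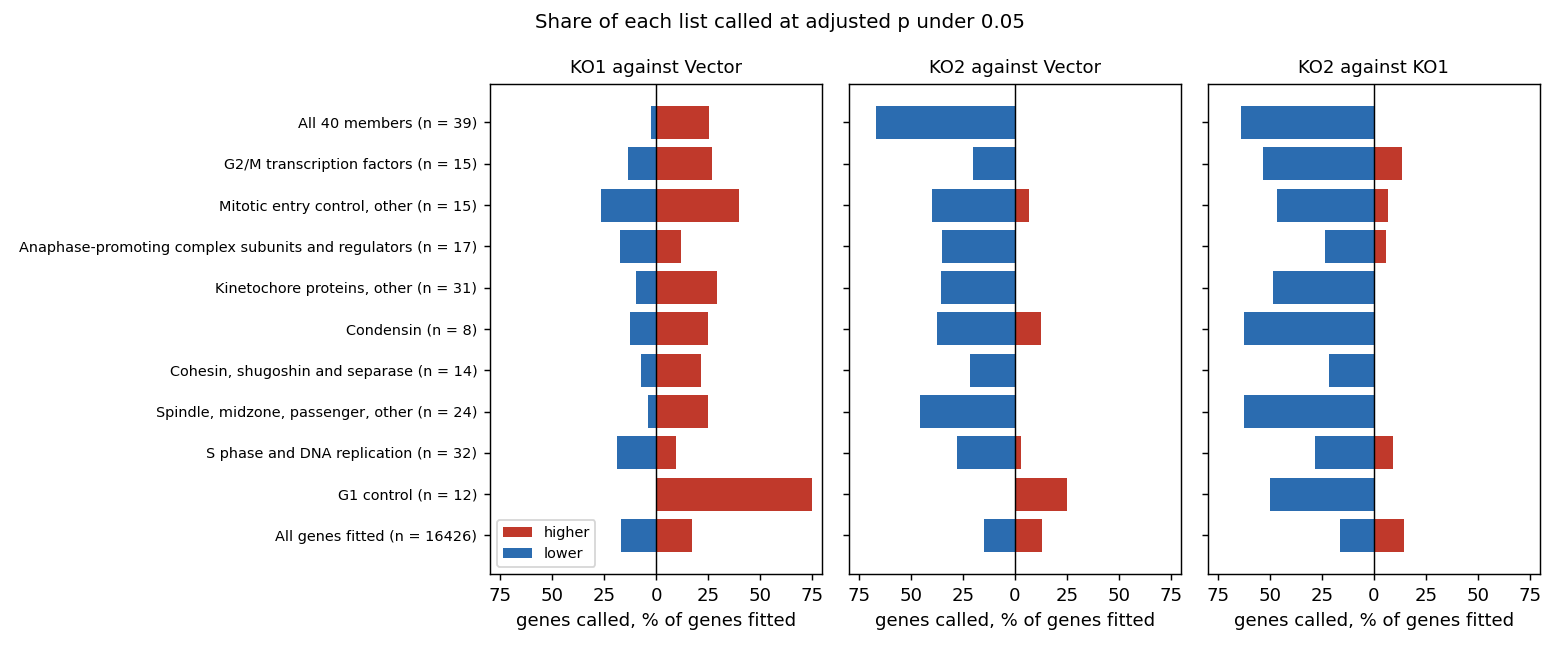
Percent of the fitted genes of each list (y axis, n in brackets) that were called higher (red, right) or lower (blue, left) at an adjusted p under 0.05, in each of the 3 comparisons. For the members the bars show 10 of 39 higher in KO1 and 26 of 39 lower in KO2. For the list of G1 control genes they show 9 of 12 higher in KO1. The row of all genes shows 17.4% higher in KO1 and 15% lower in KO2.

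Levels of the members differ widely, and FPKM allows a comparison per length. In Vector the highest were CKS2 at 109 ± 20.7 FPKM (SD, n = 3), TPX2 at 93.8 ± 9.26 and UBE2C at 68.3 ± 3.73. CKS2 and TPX2 do not differ beyond their spread. In KO1 UBE2C was the highest, at 143 ± 13.4 FPKM. In KO2 CCNB1 was the highest, at 72 ± 2.38 FPKM, followed by UBE2C at 67.1 ± 22.1, within its spread of CCNB1. The lowest fitted members in Vector were NUSAP1 at 3.06 ± 0.742 FPKM and MAD2L1 at 6.28 ± 0.697. Of the NUSAP1 exon length 62.2% overlaps another gene on the same strand, so the level of NUSAP1 is uncertain. Named pseudogenes in GENCODE 29 also exist for UBE2C (4), AURKA (2) and NEK2 (2), and for CCNB2, BUB1, BUB3, CDC20, DLGAP5 and MKI67 (1 each), which makes these levels uncertain too.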

How the data were processed

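RNA-seq covered 9 H1299 libraries (3 Vector, 3 KO1 and 3 KO2) made from TRIzol-extracted total RNA with a NEBNext Ultra kit, per the labels' protocols. The deposited table holds FPKM per gene. The submitters' processing notes name CASAVA 1.6, HISAT2 2.0.5, featureCounts 1.5.0-p3 and the build hg38. Whether strand was used, and how reads with several matches were counted, is not given in the sources used here, so antisense and near-identical genes cannot be told apart. All gene identifiers were matched to GENCODE 29 (Ensembl 94). FPKM multiplied by the merged exon length gave whole reads within 0.02 reads for 100% of values.

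From these files log2(FPKM + 1) was computed, which understates changes of low genes. Genes averaging 0.5 FPKM or more across the 9 libraries (16426) entered 1 limma 3.58.1 model (R 4.3.3, trended empirical Bayes) with the group as the only term. All adjusted p-values are Benjamini-Hochberg over these genes, with a threshold of 0.05. Both clones share the Vector libraries. The procedure was tested on simulated data, and no error rate from that test is given here.

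The members and the gene lists were chosen with earlier results of these data known. Values in every library are given for up to 3 members per role with the smallest p in KO2 and the 1 with the largest, and for every member called in KO1 or between the clones. From each other list the rule takes up to 2 rising and 2 falling called genes with the smallest p per clone. FOXM1 and MYBL2 were named outside that rule, after their values were seen. So were the G1 control genes CDKN1B, CDKN2D, CCND1, CCND3, CDK4 and RB1. The values of CCNB1 in every library were also given outside the rule for members. Alternatives covered scaling, filters, pseudocount, library weights, limma-voom, the replicate block, GC, neighbouring genes and libraries left out. Promoters came from RefSeq (GRCh38.p14).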

Additional observations from a re-analysis of the deposited data

Results flagged for a closer look

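Levels differed between the clones for 25 of the 39 fitted members, by limma on the KO2 and KO1 libraries in the model of all 9 (adjusted p under 0.05). All 25 were lower in KO2 than in KO1, where 16.4% of all genes were called lower and 14.5% higher. The values below are log2 differences of FPKM + 1. The 10 members that rose in KO1 all differed: CDC25B (-0.91), CCNA2 (-0.996), CDC25C (-0.76), CKS1B (-1.38), PLK1 (-1.51), AURKA (-0.86), AURKB (-1.42), BIRC5 (-0.51), UBE2C (-1.14) and KIF2C (-1.28). A further 13 members fell in KO2 and were not called in KO1: CDK1 (-1.13), CENPA (-1.13), NDC80 (-0.91), NUF2 (-1.15), KIF4A (-1.19), TPX2 (-0.81), BUB1 (-0.49), BUB3 (-0.71), MAD2L1 (-0.61), CDC20 (-0.79), KIF11 (-0.40), KIF23 (-0.39) and TOP2A (-0.44). NEK2 and ANLN passed in neither clone against Vector and differed between the clones: NEK2 (-0.73) and ANLN (-0.54). All 3 KO2 libraries lay below all 3 KO1 libraries in each of these members, and in 28.8% of all genes. The members were picked by a test of these same libraries, so this is no further support.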

How the results depend on the processing

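Members falling in KO2 (26) and lower in KO2 than in KO1 (25) stayed within 1.5 times these counts in every alternative run, at 19 to 34 and 19 to 36. The share of all genes called lower in KO2 than in Vector also moved, from 15% to 13.1% with the neighbours' median subtracted. Without the 2 libraries that stand apart it was 25.4%. These ranges alone thus do not show how far the members moved apart from all genes. In KO1, where 10 rose and 1 fell, library weights gave 19 rising and 13 falling, beside 34% and 31.6% of all genes. Removing the GC and length trend, an alternative chosen after seeing the data, gave 21 rising and 6 falling there, beside 22.9% and 22.8%. The members falling in KO1 were 8 with TPM scaling (20% of all genes), 7 with quantile normalization (16.1%), 2 with limma-voom (17.5%), 3 with the neighbours' median subtracted (14.8%), 12 without the 2 libraries that stand apart (27.3%) and 0 at an adjusted p of 0.01. The falls with TPM scaling, quantile normalization, library weights and without the 2 libraries were near those shares. Leaving out each library in turn gave 0 to 12 falling and 7 to 14 rising in KO1, with 12 falling without Vector replicate 3. Without that library 21.6% of all genes were called lower and 23.2% higher in KO1. The shares for the other libraries left out are not given here. In KO2 1 member rose with the GC and length trend removed. In KO2 against KO1 the members higher were 1 with TPM scaling, 1 with quantile normalization, 1 with only the 6 libraries compared, 2 with library weights, 1 with the GC and length trend removed, 2 without the 2 libraries and 0 to 1 with each library left out. Of all genes, 17.6% were higher with only the 6 libraries compared and 21.6% without the 2 libraries. The cause was not tested. Replicate numbers did not pair the libraries (correlations of deviations -0.202 to 0.142), and with the replicate block 11 rose and 1 fell in KO1, 22 fell in KO2 and 23 were lower in KO2 than in KO1. The shares of all genes with the replicate block are not given here. The scalings moved the median of all genes by at most 0.095. No called member changed direction. A GC correction from the genome sequence was not run. The low members PRC1 and NUSAP1 carry few reads.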
